A study of Sus scrofa with 6 samples.

Results

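CDKN1A encodes p21, an inhibitor of cyclin-dependent kinases (CDKs), and in these data its reads are divided over a pair of gene models with the same protein match, the model that carries the symbol CDKN1A and ENSSSCG00000022111. These models are described here with the other CDK inhibitors CDKN1B, CDKN1C, CDKN2A, CDKN2B and CDKN2C and with MDM2, GADD45A and CCNG1 of the p53 response. Members were found by the symbol of the model or else by protein name, which gave 8 models of the 19670 in the series for the 10 members named. CDKN1C and GADD45A had no match by this rule and were not analysed here. The rule goes by names, but the genes were selected on earlier results of the comparison of GW0742 with DMSO in these same libraries. The members' differences between these groups are therefore given as a description, without p-values. Counts of members called are printed only beside the shares over all tested models, and nothing is read from them. The gene lists below were also chosen with earlier results of these data known. Their p-values and counts are therefore a description and no independent test.

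The groups are GW0742 (3 libraries) and DMSO (3 libraries), each after 24 h of incubation. GW0742 activates PPARD, a nuclear receptor for fatty acids, and DMSO served as the control. All cells were primary cells of external ear cartilage, freed by enzymes from 1 pig of 4 months, a Duroc × (Landrace × Large White) hybrid with wild-type PPARD. Nothing in the labels tells whether the cultures were kept apart, so a p-value here measures no more than how these libraries vary, and that may be technical variation. The dose of GW0742 is not given in the sources used here.

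CDK inhibitors brake the cell cycle by holding the kinases that cyclins activate. The CIP/KIP proteins p21 (CDKN1A) and p27 (CDKN1B) bind complexes of cyclins with CDK2 and its relatives, and the INK4 proteins (p16 from CDKN2A, p15 from CDKN2B, p18 from CDKN2C) bind CDK4 and CDK6 alone. CDKN1A is the best known target of the transcription factor p53, and MDM2 and CCNG1 are p53 targets that act back on p53. In growth plate cartilage of mice, p21 and p57 are linked to chondrocytes that leave the cell cycle.

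The libraries held between 13133980 and 16913745 estimated reads, and 14146 models were deep enough to be tested. The first principal component parted the groups, and on the second DMSO replicate 2 lay far from DMSO replicates 1 and 3. Treatment was visible in ANGPTL4, a lipoprotein lipase inhibitor and known PPAR target, at 176 to 200 CPM (read counts scaled to library size) in GW0742 libraries and at 16.0 to 26.5 CPM in DMSO libraries. The cartilage genes COL2A1 (456 to 500 CPM with GW0742, 483 to 541 CPM with DMSO) and SOX9 (36.1 to 40.8 CPM and 41.6 to 45.3 CPM) were present in every library. Of 10 chondrocyte markers 9 were tested, and edgeR called 1 lower (beside 0.0778% of all tested models). That gene was ACAN, the core protein of aggrecan (log2 fold change -0.50, edgeR adjusted p = 0.0185). The ACAN call ended without GW0742 replicate 1 (edgeR adjusted p = 0.105), DMSO replicate 1 (0.101) or DMSO replicate 3 (0.0815), and in limma with either pseudocount (0.0648 to 0.0950). The 10 summed to between 1956 and 2083 CPM with GW0742 and between 2393 and 2536 CPM with DMSO. This sum lay lower in all GW0742 libraries, as the CDKN1A sum and CCNG1 do below. ACAN alone stood at 558 to 589 CPM with GW0742 and at 785 to 853 CPM with DMSO. Of the 9 tested, 8 had log2 fold changes below 0 and COMP above (0.06), and the groups overlapped in COL2A1. In edgeR 3 had an unadjusted p under 0.05 (beside 16.8% of all tested models). DESeq2 called 2 (beside 3.12%), and the groups did not overlap in 4 (beside 23.5%). The 6 endothelial markers found summed to between 97.9 and 133 CPM with GW0742 and between 62.9 and 88.5 CPM with DMSO, while CDH5 and VWF were not analysed here. All 6 had log2 fold changes above 0 (median 1.36). In edgeR 0 of them were called, while 6 had an unadjusted p under 0.05 (beside 16.8% of all tested models). DESeq2 called 2 (beside 3.12%), and the groups did not overlap in 5 (beside 23.5%). The 5 muscle markers found, which include ACTA2 and CNN1, summed to between 3551 and 4178 CPM with GW0742 and between 4648 and 4838 CPM with DMSO. Most of this sum was ACTA2 (2741 to 3227 CPM and 3606 to 3763 CPM). Of the 4 tested, 3 had log2 fold changes below 0 and 1, MYH11, above (0.09). In edgeR 0 were called (3 with an unadjusted p under 0.05, beside 16.8% of all tested models). DESeq2 called 2 (beside 3.12%), and the groups did not overlap in 3 (beside 23.5%). The 6 immune markers summed to between 30.3 and 35.4 CPM with GW0742 and between 26.0 and 30.5 CPM with DMSO. Of the 4 that were tested all had log2 fold changes above 0, and the groups did not overlap in 2 (beside 23.5% of all tested models). Both edgeR and DESeq2 called 0, and 1 had an unadjusted edgeR p under 0.05. That 1 was CD79A, a B cell receptor subunit, at 3.64, 1.21 and 2.87 CPM with GW0742 and 1.21, 0.847 and 0.974 CPM with DMSO. PTPRC, found on all white blood cells, stood at 0.17 to 0.18 CPM with GW0742 and 0.14 to 0.22 CPM with DMSO, close to the level that 3 reads give. The part of these cell types in the values below was not tested, and with bulk RNA fewer cells of a type and less RNA per cell cannot be told apart.

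Nearly all CDKN1A reads lay on ENSSSCG00000022111, the longer of the models with 2121 bases. In RPKM, the deposited unit in which reads are scaled by model length and library depth, it stood at 180, 181 and 198 in GW0742 replicates 1, 2 and 3, and at 217, 226 and 219 in DMSO replicates 1, 2 and 3. All GW0742 libraries lay below all DMSO libraries. The means were 186 ± 10.18 RPKM with GW0742 and 221 ± 4.79 RPKM with DMSO (SD, n = 3 each), and the fitted log2 fold change was -0.27 ± 0.07 (SE).

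The shorter model, which carries the symbol CDKN1A (ENSSSCG00000001565, 947 bases), had another pattern. It was at 4.67 and 16.2 RPKM in GW0742 replicates 1 and 3 and listed at 0 in GW0742 replicate 2, against 0, 0.19 and 0.086 RPKM in DMSO replicates 1, 2 and 3. These values rest on 62.0, 0 and 251 estimated reads with GW0742 and on 0, 2.62 and 1.46 reads with DMSO. The GW0742 libraries thus disagreed with each other, replicate 2 being as low as the DMSO libraries, and every DMSO library was under the floor of 3 reads. The model did not pass the filter on low counts, so it has no fitted fold change.

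As a share of all CDKN1A reads, the shorter model took 1.14% in GW0742 replicate 1 (95% exact binomial interval 0.874% to 1.46%) and 3.49% in GW0742 replicate 3 (3.08% to 3.94%). In GW0742 replicate 2 it took 0%, where the exact interval reaches 0.0573% and the floor of 3 reads lies at 0.0466%. The DMSO libraries gave 0%, 0.0372% and 0.0173%, each with an upper interval bound of at most 0.124%. These intervals cover counting error only, and estimated reads can be passed between models that share sequence. More RNA from the shorter model and reads passed from the longer one cannot be told apart here.

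Summed over both models, CDKN1A gave 417, 401 and 470 CPM in GW0742 replicates 1, 2 and 3, against 493, 529 and 507 CPM in DMSO replicates 1, 2 and 3. The groups did not overlap in the sum either. The means were 429 ± 35.8 CPM with GW0742 and 509 ± 18.4 CPM with DMSO (SD, n = 3 each), with a log2 fold change of -0.25 ± 0.07 (SE), so the sum and the longer model gave nearly the same value. The model that bears the symbol, taken alone, lay higher in 2 of the 3 GW0742 libraries than in any DMSO library, opposite in direction to the sum.

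**Figure D1:**
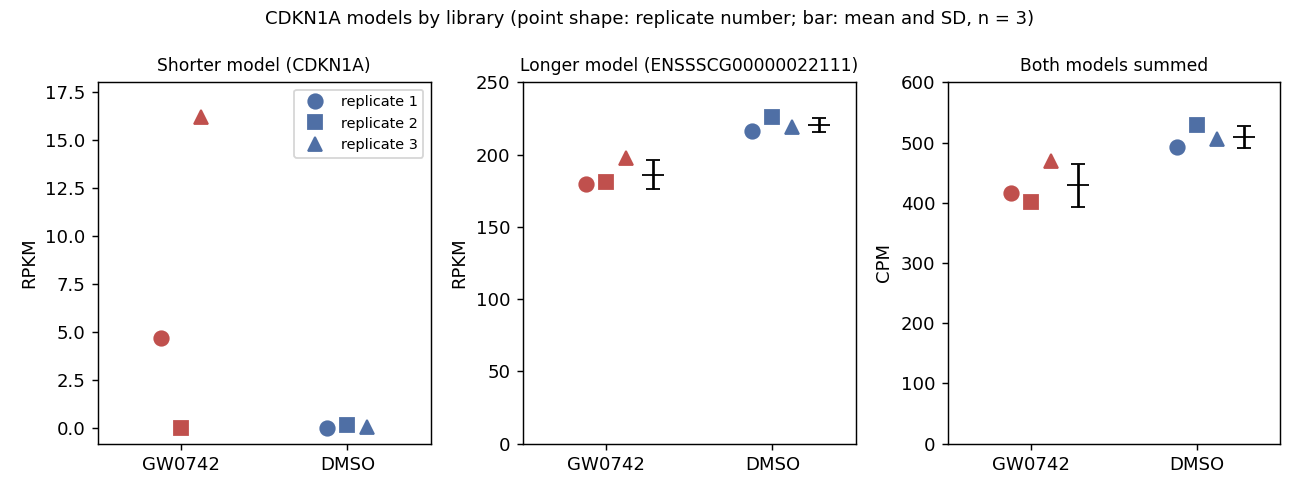
Levels of the shorter CDKN1A model and of ENSSSCG00000022111 in RPKM and of their sum in CPM, with 1 point per library and, for the last 2 panels, the mean and SD of 3 libraries. The shorter model is high in GW0742 replicates 1 and 3 only, while the longer model and the sum are lower in all GW0742 libraries than in all DMSO libraries.

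A split of this kind was seen for other genes. Among 746 pairs of models that match 1 protein entry and together average at least 5 CPM, 27 had a minor model with under 1 read in some library and at least 50 in another, the CDKN1A pair among them. In 7 of the 746 pairs both cases occurred within the GW0742 libraries, again with the CDKN1A pair among them. These limits of reads were chosen after the CDKN1A values were seen.

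CDKN1B, the gene of p27, stood at 26.1, 18.6 and 31.3 RPKM in GW0742 replicates 1, 2 and 3, and at 21.2, 19.7 and 20.4 RPKM in DMSO replicates 1, 2 and 3. GW0742 replicates 1 and 3 were above every DMSO library and GW0742 replicate 2 was below every one, so the groups overlapped. The spread was larger with GW0742 (25.3 ± 6.36 RPKM) than with DMSO (20.5 ± 0.756 RPKM; SD, n = 3 each). The log2 fold change of 0.29 ± 0.18 (SE) was 0.48 without GW0742 replicate 2 and 0.10 without GW0742 replicate 3.

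The INK4 genes were low. CDKN2B stood at 2.43, 3.12 and 4.79 RPKM in GW0742 replicates 1, 2 and 3, against 0.795, 0.556 and 1.32 RPKM in DMSO replicates 1, 2 and 3. Every GW0742 library was above every DMSO library. The values rest on 15, 22.9 and 34.6 estimated reads with GW0742 and on 6.28, 3.58 and 10.5 reads with DMSO, and the log2 fold change was 1.85 ± 0.40 (SE). On the log2(RPKM + 1) scale of limma, which understates differences of low genes, it was 1.22. CDKN2B passed the filter on low counts only through its GW0742 libraries, so that a difference was already needed for it to be tested.

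CDKN2A, the gene of p16 and of the p53 activator ARF, lies beside CDKN2B in mammalian genomes. It had 8.77, 5.01 and 2.20 estimated reads in GW0742 replicates 1, 2 and 3, against 7.48, 2.26 and 6.79 reads in DMSO replicates 1, 2 and 3, and did not pass the filter. In RPKM these were 1.93, 0.928 and 0.415 with GW0742 and 1.29, 0.479 and 1.16 with DMSO. The GW0742 range enclosed the DMSO range, and no difference was detectable at this depth. The order of the GW0742 libraries was opposite in the neighbours, with replicate 3 the highest for CDKN2B and the lowest for CDKN2A. CDKN2A and CDKN2B have related sequences, so estimated reads could also be divided between them.

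CDKN2C, the gene of p18, had 4.03, 6.49 and 5.92 RPKM in GW0742 replicates 1, 2 and 3 and 6.59, 4.82 and 4.93 RPKM in DMSO replicates 1, 2 and 3. The ranges overlapped, and the log2 fold change was -0.02 ± 0.20 (SE). Leaving out GW0742 replicate 1 or DMSO replicate 1 turned its sign.

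CCNG1 encodes cyclin G1, a p53 target that brings a phosphatase to MDM2. It stood at 59.6, 47.0 and 64.7 RPKM in GW0742 replicates 1, 2 and 3, and at 74.2, 77.3 and 71.8 RPKM in DMSO replicates 1, 2 and 3. No GW0742 library reached the DMSO range, and GW0742 replicate 2 was the lowest. The means were 57.1 ± 9.13 RPKM with GW0742 and 74.4 ± 2.76 RPKM with DMSO (SD, n = 3 each), and the log2 fold change was -0.40 ± 0.12 (SE).

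MDM2, the ubiquitin ligase that marks p53 for degradation, stood at 18.7, 19.3 and 20.5 RPKM in GW0742 replicates 1, 2 and 3, inside the range of 17.5, 22.1 and 18.8 RPKM in DMSO replicates 1, 2 and 3. Its log2 fold change was -0.02 ± 0.10 (SE), with a sign that turned in several alternatives. Of the p53 targets in the set, the CDKN1A sum and CCNG1 thus lay lower in every GW0742 library, while the groups overlapped in MDM2.

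**Figure D2:**
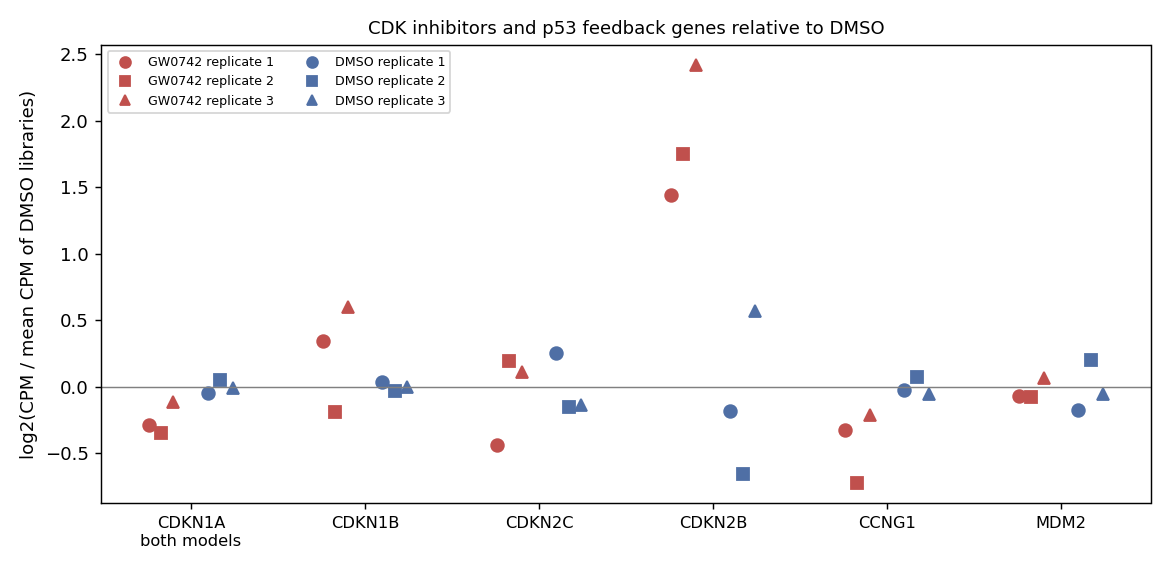
Each tested gene in every library as log2 of its CPM over the mean CPM of the DMSO libraries, with GW0742 left of DMSO. CDKN2B lies above its DMSO points and the CDKN1A sum and CCNG1 below theirs, and the GW0742 replicates of CDKN1B fall on both sides of its DMSO points.

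Of the 8 models, 6 passed the filter on low counts and 2 did not (the shorter CDKN1A model and CDKN2A). None of the 6 passed an adjusted p of 0.05 in edgeR, where 0.262% of all tested models did (0.184% higher and 0.0778% lower). At an unadjusted p under 0.05 there were 3 of the 6, beside 16.8% of all tested models, with 1 higher (7.93% of all) and 2 lower (8.91% of all). DESeq2 called 2 of the 6, the longer CDKN1A model and CCNG1, against 3.12% of all tested models, and it called the CDKN1A sum as well. The groups did not overlap in 3 of the 6 (23.5% of all tested models), with CDKN2B higher (11.4% of all) and the longer CDKN1A model and CCNG1 lower (12.1% of all). The members were chosen with this comparison known, and CDKN2B was tested only through its GW0742 libraries, so nothing is read from these counts and shares. The median log2 fold change of the 6 was -0.02, beside -0.002 over all tested models. On the CPM scale, GW0742 replicate 2 was the lowest of the GW0742 libraries in 4 of the 6, and in 35.2% of all tested models. In RPKM it was the lowest in CDKN1B and CCNG1, whereas GW0742 replicate 1 was the lowest, by a small margin, in the longer CDKN1A model and MDM2.

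Between genes, levels can be compared on the RPKM scale, which is scaled by length, and each of the 8 models has 1 transcript. Averaged over the 6 libraries, the longer CDKN1A model (203 RPKM) was the highest and stood at rank 367 of all 19670 models. CCNG1 (65.8 RPKM) followed, then CDKN1B (22.9 RPKM), MDM2 (19.5 RPKM), CDKN2C (5.46 RPKM), the shorter CDKN1A model (3.52 RPKM), CDKN2B (2.17 RPKM) and CDKN2A (1.03 RPKM). The longer CDKN1A model and CCNG1 each had a range over the 6 libraries apart from that of the next gene. CDKN1B and MDM2 overlapped in range, as did CDKN2C, the shorter CDKN1A model, CDKN2B and CDKN2A, each with the next. With GW0742, CDKN2B lay above CDKN2A in every library, whereas the DMSO ranges of CDKN2B and CDKN2A overlapped.

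Within a library, the RPKM sum of CDKN1A was 7.05, 9.71 and 6.84 times that of CDKN1B in GW0742 replicates 1, 2 and 3, and 10.198, 11.5 and 10.8 times in DMSO replicates 1, 2 and 3. The ratio of CDKN1A to CDKN1B was therefore lower in each GW0742 library than in any DMSO library, though the groups overlapped in CDKN1B itself. The ratio of CDKN1A to CCNG1 was 3.09, 3.85 and 3.30 with GW0742 and 2.92, 2.92 and 3.06 with DMSO. On this RPKM sum the groups did not overlap, but 3.09 in GW0742 replicate 1 was close to 3.06 in DMSO replicate 3. In that GW0742 library the shorter model adds 4.67 RPKM to the sum, so the separation depends on how the models are added. The ratio of CDKN1A to MDM2 was 9.85, 9.39 and 10.43 with GW0742 and 12.4, 10.21 and 11.7 with DMSO. Here the groups overlapped, but only through GW0742 replicate 3 (10.43 against 10.21 in DMSO replicate 2). The shorter model adds 16.2 RPKM to the sum in GW0742 replicate 3, so this overlap also depends on how the models are added.

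**Figure D3:**
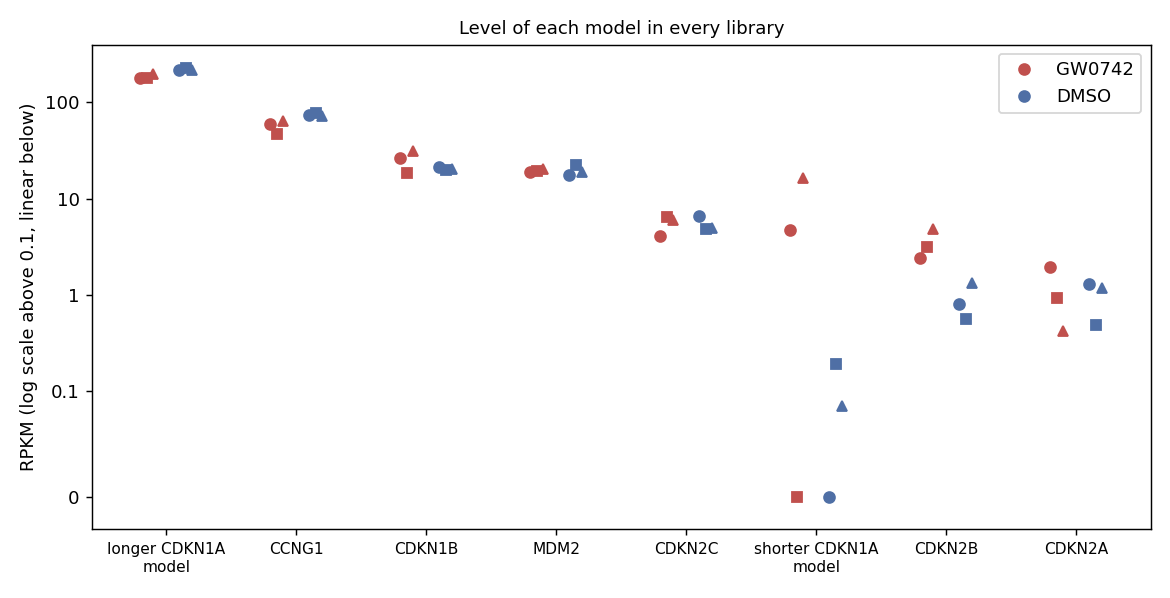
RPKM of the 8 models in every library on an axis that is logarithmic above 0.1 and linear below, ordered by mean. The longer CDKN1A model is the highest in all libraries, and the shorter model spans from 0 to 16.2 RPKM.

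Relatives of the members were described from a list of 6 genes, of which 5 were found and tested. None of the 5 passed in edgeR (1 with an unadjusted p under 0.05, beside 16.8% of all tested models) or in DESeq2. Their median log2 fold change was -0.22, and the groups did not overlap in 2 (beside 23.5%). CDKN2D, which encodes the INK4 protein p19, was measured at 7.10, 7.55 and 7.58 CPM with GW0742 and at 9.63, 10.8 and 7.74 CPM with DMSO (log2 fold change -0.33 ± 0.15, edgeR adjusted p = 0.326). CDKN2AIP, whose protein binds ARF, stood at 14.6, 9.65 and 14.8 CPM with GW0742 and at 9.81, 8.19 and 10.6 CPM with DMSO (log2 fold change 0.44 ± 0.19, edgeR adjusted p = 0.278). In CDKN2AIP, as in CDKN1B, GW0742 replicate 2 was apart from the other GW0742 libraries. GADD45B, a stress sensor of the GADD45 family, stood at 116, 90.2 and 118 CPM with GW0742 and at 132, 120 and 125 CPM with DMSO. The model ENSSSCG00000009585, whose protein name is GADD45 gamma, stood at 61.8, 43.0 and 58.0 CPM with GW0742 and at 47.8, 49.6 and 50.8 CPM with DMSO. GW0742 replicate 2 was again the lowest of its group in both. GADD45B and this model were named after their values were seen.

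No gene passed among the cyclins, the CDKs and the pocket proteins that they phosphorylate. Of 21 genes 14 were found and tested, and edgeR called 0 of them (6 with an unadjusted p under 0.05, beside 16.8% of all tested models), as did DESeq2. Their log2 fold changes were above 0 in 9 of 14, with a median of 0.07. The groups did not overlap in 6 of the 14 (beside 23.5%). The cyclins of the step into S phase had the highest values in the list. CCNE2 reached 3.71, 3.46 and 2.63 CPM with GW0742 and 2.29, 1.81 and 2.12 CPM with DMSO (log2 fold change 0.65 ± 0.23, edgeR adjusted p = 0.208). CCNE1 stood at 5.03, 6.29 and 6.89 CPM with GW0742 and at 3.76, 5.04 and 4.46 CPM with DMSO, where the groups overlapped (0.47 ± 0.19, edgeR adjusted p = 0.265). RB1, the retinoblastoma pocket protein, stood at 44.6, 37.3 and 44.8 CPM with GW0742 and at 48.4, 52.9 and 49.0 CPM with DMSO (-0.25 ± 0.09, edgeR adjusted p = 0.217). CDK4, the kinase that INK4 proteins hold, overlapped, at 84.8 to 96.0 CPM with GW0742 and 88.5 to 99.1 CPM with DMSO. RB1 and CDK4 were named after their values were seen.

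No gene of the p53 core passed. Of 18 genes of the p53 core and its feedback 14 were tested, and edgeR called 0, as did DESeq2. An unadjusted edgeR p under 0.05 was found for 1 of the 14 (beside 16.8% of all tested models). The median log2 fold change was 0.05, and the groups did not overlap in 1 of the 14 (beside 23.5%). The largest values belonged to ATR, a kinase of the DNA damage response (0.25 ± 0.10, edgeR adjusted p = 0.261), and PIDD1, which carries a death domain (0.23 ± 0.16, edgeR adjusted p = 0.485), whose value was 0.040 without GW0742 replicate 2. Of 29 other p53 targets 18 were tested. Again edgeR called 0 (3 with an unadjusted p under 0.05, beside 16.8% of all tested models), as did DESeq2. Of the 18 log2 fold changes 8 were above 0, with a median of -0.01. The groups did not overlap in 4 of the 18 (beside 23.5%). TIGAR, which lowers glycolysis, stood at 10.04, 8.44 and 8.95 CPM with GW0742 and at 7.24, 7.01 and 7.12 CPM with DMSO (0.36 ± 0.13, edgeR adjusted p = 0.231). RRM2B, a ribonucleotide reductase subunit, stood at 10.8, 11.8 and 11.5 CPM with GW0742 and at 13.4, 16.0 and 12.4 CPM with DMSO (-0.29 ± 0.13, edgeR adjusted p = 0.284).

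Among 19 tested regulators of CDKN1A and CDKN1B of 24 listed, edgeR called 0 and DESeq2 called 2 (beside 3.12% of all tested models). At an unadjusted edgeR p under 0.05 there were 2 (beside 16.8%), and the groups did not overlap in 2 (beside 23.5%). EGR1, an immediate early transcription factor, had 15.1, 25.2 and 10.8 CPM with GW0742 and 6.05, 7.83 and 6.73 CPM with DMSO. All GW0742 libraries were higher, and replicate 2 the highest (log2 fold change 1.32 ± 0.29, edgeR adjusted p = 0.0961). DESeq2 called it (adjusted p = 0.000342), as did edgeR without GW0742 replicate 3 (adjusted p = 0.0476), while its adjusted p over the alternatives reached 0.340. KLF4, which activates CDKN1A in human cells, stood at 75.9, 65.5 and 73.7 CPM with GW0742 and at 83.3, 94.0 and 90.0 CPM with DMSO (-0.31 ± 0.08, edgeR adjusted p = 0.122), and was the other gene that DESeq2 called. KLF4 was named after its values were seen. The SP3 model had a log2 fold change of -1.36 ± 0.71 (edgeR adjusted p = 0.375) with overlapping groups. Without GW0742 replicate 3 it was -2.84, and with its second model summed in it was 0.072.

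DNA replication and mitosis are processes that p21 and p27 hold back. Of 21 genes listed for them, 14 were tested and edgeR called 0 (3 with an unadjusted p under 0.05, beside 16.8% of all tested models), as did DESeq2. The log2 fold change was above 0 in 12 of 14, with a median of 0.12, beside -0.002 over all tested models. The groups did not overlap in 1 of the 14, beside 23.5% of all tested models. CDC6, which loads the replicative helicase, stood at 2.73, 3.99 and 3.26 CPM with GW0742 and at 1.86, 2.48 and 1.81 CPM with DMSO (0.72 ± 0.24, edgeR adjusted p = 0.188). MCM2, a subunit of that helicase, stood at 44.9, 49.2 and 36.5 CPM with GW0742 and at 37.0, 30.1 and 34.2 CPM with DMSO (0.36 ± 0.12, edgeR adjusted p = 0.195). In MCM2 the groups overlapped.

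The last list held genes linked to senescence, the lasting arrest for which p16 and p21 serve as marks, with 15 listed and 10 tested. In edgeR 4 of the 10 had an unadjusted p under 0.05 (beside 16.8% of all tested models). DESeq2 called 3 (beside 3.12%), and the groups did not overlap in 7 (beside 23.5%). IGFBP7, an insulin-like growth factor binding protein, was the 1 member that edgeR called higher (beside 0.184%), and none was called lower. It had 140, 130 and 123 CPM with GW0742 and 65.0, 82.4 and 73.0 CPM with DMSO (log2 fold change 0.84 ± 0.09, edgeR adjusted p = 0.0152). The groups did not overlap, but 3 libraries each ended the call when left out, GW0742 replicate 1 (adjusted p = 0.105), DMSO replicate 1 (0.0734) and DMSO replicate 3 (0.0815). It also ended in limma on log2(RPKM + 1) without the filter on low values (adjusted p = 0.0674). MMP1, an interstitial collagenase, stood at 7.5, 19.7 and 8.61 CPM with GW0742 and at 3.42, 2.67 and 2.89 CPM with DMSO (2.00 ± 0.37, edgeR adjusted p = 0.0730), with 1.33 on the log2(RPKM + 1) scale. DESeq2 called MMP1 (adjusted p = 4.2e-06), while its adjusted p over the alternatives reached 0.249. The model named CXCL8, a neutrophil chemokine, was measured at 1.46, 2.51 and 1.95 CPM with GW0742 and 4.20, 3.18 and 3.69 CPM with DMSO (-0.90 ± 0.25, edgeR adjusted p = 0.139). In RPKM the groups overlapped in CXCL8, and with its second model, ENSSSCG00000027291, summed in, the log2 fold change was -0.04 (edgeR adjusted p = 0.954). The list median was 0.24.

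**Figure D4:**
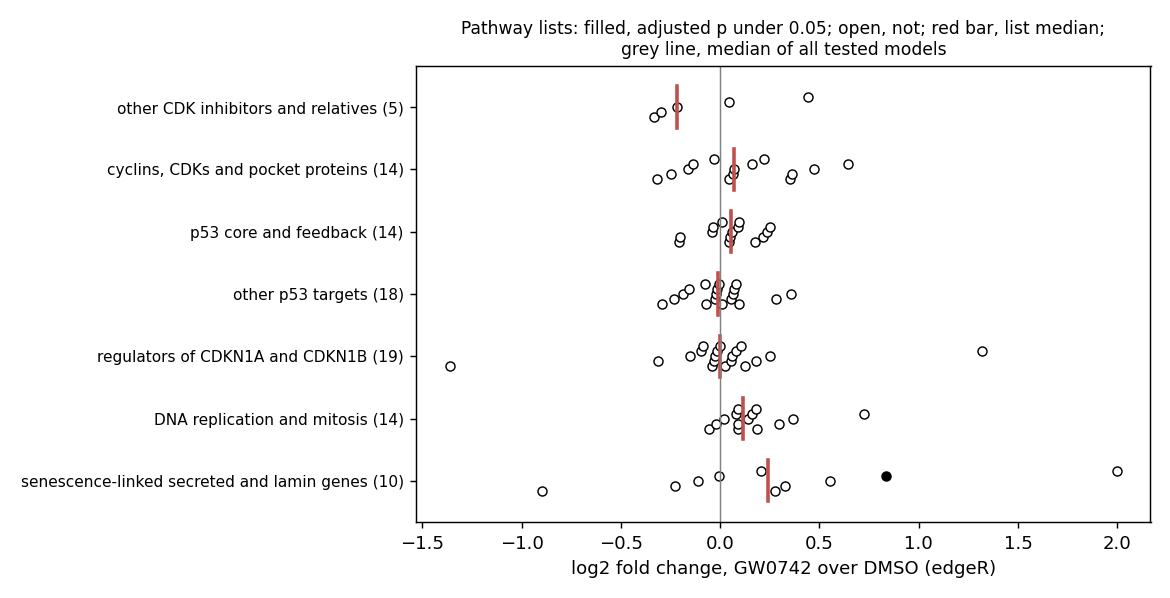
Log2 fold change of every tested gene of the 7 pathway lists, GW0742 over DMSO, with the number tested in brackets, the list median as a red bar and the median of all tested models as a grey line. IGFBP7 is the filled point, and all others are open because they did not pass an adjusted p of 0.05.

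Over the 7 lists together, 92 different genes were tested. Of these 1 was called higher and 0 lower in edgeR, 20 had an unadjusted p under 0.05 (beside 16.8% of all tested models), and DESeq2 called 5 (beside 3.12%). Their median log2 fold change was 0.06. As the lists were chosen with earlier results of these data known, nothing is read from the counts and shares of any list.

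The pattern of the CDKN1A sum over the 6 libraries was compared with that of 7312 tested genes with symbols at a mean of at least 5 CPM. The measure was the root mean square difference of log2 CPM after each gene was centred on its own mean. It counts the size of the differences as well as their pattern, so a gene that varies little between libraries can also score low. Among the 5 nearest genes were NFYC, a subunit of the factor that binds CCAAT boxes (0.029), RAB6A, a GTPase of the Golgi (0.032), NEK7, a kinase (0.032), and STAG1, a cohesin subunit (0.034). The median over all 7312 was 0.187. NFYC had 57.4, 52.8 and 61.4 CPM with GW0742 and 65.6, 68.2 and 66.9 CPM with DMSO, and so had its lowest value in GW0742 replicate 2 and its highest in DMSO replicate 2, as CDKN1A had. Among the other members CCNG1 was the nearest (0.136), then MDM2 (0.144), CDKN2C (0.277), CDKN1B (0.310) and CDKN2B (1.11). CCNG1 and MDM2 scored nearly alike, though the log2 fold change was -0.40 in CCNG1 and -0.02 in MDM2. No likeness to CDKN1A is therefore read from the values of the members. These distances are a description over 6 libraries that all genes share.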

How the data were processed

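The members and gene lists were chosen with earlier results of these data known. Every library's deposited table holds, per the file headers, RPKM beside an estimated count for each model. The submitters' processing notes name Sscrofa 10.2 as build. Which aligner and counter were used is not given in the sources used here. Poly(A) RNA was read on an Ion Proton, per the labels' protocols, which name no step that marks the strand. Models were named from a table of gene identifiers (11147 models), or where the protein entry and the pathway identifier both led to 1 unused symbol in the RefSeq gene table of Sscrofa11.1 (567). No coordinates are printed, as that build differs.

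Estimated counts were rounded, filtered by filterByExpr with a minimum count of 10 and TMM-scaled. GW0742 was compared with DMSO in edgeR 4.0.16 (R 4.3.3) by its quasi-likelihood test, with Benjamini-Hochberg adjustment over all 14146 tested models and a threshold of 0.05. The sum of the CDKN1A models was tested in a second fit in which it replaced both. CPM values use TMM library sizes, and the SE is the log2 fold change over the root of its F value. A count of 3 reads is the floor, between 0.177 and 0.228 CPM per library. Chi-square values per degree of freedom ran from 4.34 to 16.0 between libraries of a group and from 10.1 to 18.0 between groups, so no pair agreed within sampling noise. Fits were tested on simulated data.

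The rule for named genes took all members, per list up to 3 genes past the threshold and the 2 largest log2 fold changes that did not pass at a mean of at least 1 CPM, the 5 genes nearest to the CDKN1A sum (1 of them is not reported here), and PPARD, ANGPTL4, PDK4 and CPT1A as checks. Alternatives were DESeq2 1.42.0, median-of-ratios size factors, no filter, a replicate block, limma 3.58.1 on log2(RPKM + 1) with and without the filter and on log2(RPKM + 0.1), leaving out each library, a robust prior, and models summed by protein name or symbol.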

Additional observations from a re-analysis of the deposited data

How the results depend on the processing

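The CDKN1A sum kept its direction in all 15 alternatives, between -0.32 and -0.20. So did ENSSSCG00000022111, though with models summed by name its value is that of the sum and not its own. Neither passed except in DESeq2, with -0.25 for the sum and -0.27 for the longer model. Without each library in turn the sum ran from -0.32 to -0.20 and the longer model from -0.32 to -0.23. Over the same libraries CDKN2B ran from 1.53 to 2.28 and CCNG1 from -0.51 to -0.27. CDKN2C turned to 0.15 without GW0742 replicate 1 and to 0.13 without DMSO replicate 1. CDKN2C ran from -0.13 to 0.15 over left-out libraries. MDM2 turned to 0.0064 in limma on log2(RPKM + 1), with or without the filter, to 0.0070 on log2(RPKM + 0.1), and ran from -0.11 to 0.088 over left-out libraries. SP3 turned to 0.072 with models summed.

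Members past the threshold numbered 0, with 2 in DESeq2. Leaving out a library gave 0 to 1, the 1 being the shorter CDKN1A model once the GW0742 library in which it is at 0 was left out. That model then passed the filter only through its GW0742 libraries, so a difference was already needed for it to be tested, and nothing is read from the call. No fold is given for it, since its DMSO libraries are under the floor of 3 reads. Pathway genes called higher were 1 and lower 0. DESeq2 gave 4 and 1, limma on log2(RPKM + 1) without a filter gave 0 higher, and leaving out a library gave 0 to 2 higher. Over all models 26 were higher and 11 lower. DESeq2 gave 207 and 234, no filter 13 and 3, limma 3 lower on log2(RPKM + 1), 17 and 4 on log2(RPKM + 0.1) and 7 and 1 without a filter, summed models 49 and 21, and left-out libraries 6 to 54 and 0 to 47. The cause of these differences was not tested. A replicate block left 10 models higher and 0 lower in edgeR (1102 lower at an unadjusted p under 0.05) and 0 pathway genes higher, with an adjusted p of 0.0990 for both IGFBP7 and ACAN. The replicate numbers share no stated source, and the deviations of same-numbered libraries correlated between -0.10 and 0.008, against -0.04 to 0.06 for different numbers.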
